A study of Homo sapiens with 6 samples.

Results

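The response that leflunomide and A771726 share in nascent transcription was described in A375 cells, an established human malignant melanoma line. Leflunomide carries an isoxazole ring, and A771726, also called teriflunomide, is its ring-opened active metabolite. Cells received the solvent DMSO alone, 25 µM leflunomide or 25 µM A771726 for 48 h, each in duplicate, which gives 6 GRO-seq (global run-on sequencing) libraries. The labels give no genetic change to any group, and the dose, the time and the parent line were the same for both compounds. The shared change of a gene is the mean of its 2 log2 ratios over DMSO, 1 per compound, each set to 0 at the median gene. A gene was called when the shared change was at least 2-fold and each compound alone reached 1.5-fold in the same direction. Of 12438 gene symbols, 8706 passed the filter on low gene body density and 8838 the filter on low promoter density. On gene bodies 162 genes (1.86%) were called higher and 247 (2.84%) lower, and on promoters 1400 (15.8%) and 1370 (15.5%). Both ratios divide by the same DMSO libraries, so an unusual DMSO value moves both compounds alike, and these calls are descriptions with no test.

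Both compounds inhibit dihydroorotate dehydrogenase (DHODH), the mitochondrial enzyme that makes orotate on the way to uridine nucleotides, on which RNA synthesis draws. GRO-seq labels the RNA that engaged polymerase extends in isolated nuclei, so a gene body density follows the number of polymerases at work in a gene and a promoter density those near its start. Replication-dependent histone genes are short, intronless and transcribed mainly in S phase, whereas ribosomal protein genes and the non-coding hosts of small nucleolar RNAs are highly transcribed growth genes.

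The sequences that the results turn on come from RefSeq (GRCh38.p14), whereas the deposited densities were made on hg18. Each promoter stretch holds the 180 bases before the annotated start, in lower case with motif matches in capitals. HIST3H2A and HIST1H2BF are shown as histone genes called lower, with CCAAT on either strand in capitals. NFKBIA is shown as a gene called higher on both windows, with GGGNNTTTCC, a form of the NF-kB site, on either strand in capitals.
HIST3H2A (chr1:228457874-228458053, minus strand): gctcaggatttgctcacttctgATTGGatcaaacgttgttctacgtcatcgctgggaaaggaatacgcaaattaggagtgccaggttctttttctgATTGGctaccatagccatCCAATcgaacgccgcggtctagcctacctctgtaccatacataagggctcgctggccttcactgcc
HIST1H2BF (chr6:26199336-26199515, plus strand): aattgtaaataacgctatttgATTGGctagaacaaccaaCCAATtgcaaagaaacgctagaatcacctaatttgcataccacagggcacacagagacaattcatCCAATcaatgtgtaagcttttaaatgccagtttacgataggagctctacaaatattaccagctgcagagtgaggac
NFKBIA (chr14:35404750-35404929, minus strand): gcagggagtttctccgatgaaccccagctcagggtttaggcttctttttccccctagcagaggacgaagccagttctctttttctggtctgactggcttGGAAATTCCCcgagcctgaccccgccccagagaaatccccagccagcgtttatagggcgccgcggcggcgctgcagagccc
CCAAT had 3 matches in each histone stretch, the nearest 66 bases before the start of HIST3H2A and 76 before that of HIST1H2BF. In the full RefSeq promoter windows, which start farther upstream and run past the start, CCAAT occurred in 42 of 47 measured histone promoters with an entry (89.4%), in 14 of 14 called-lower ones with an entry, and in 35.7% of all 27305 promoters. TATAAA occurred in 63.8% of the 47, in 57.1% of the 14 and in 3264 of the 27305. GGGNNTTTCC occurred in 1.92% of all promoters and once in the NFKBIA stretch, 81 bases before the start. A match is a string of letters and was not tested for binding.

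Most called small RNA genes were microRNA loci, and mature strands are shown for the microRNA loci among the 5 small RNA genes named in each direction. One strand per locus is given, with the seed (bases 2 to 8) in capitals.
miR-3677-5p, locus called higher, chr16:2270715-2270736, plus strand: cAGUGGCCagagcccugcagug
miR-1914-5p, locus called higher, chr20:63941511-63941532, minus strand: cCCUGUGCccggcccacuucug
miR-4670-5p, locus called higher, chr9:92528030-92528051, minus strand: aAGCGACCaugauguaacuuca
miR-2110, locus called lower, chr10:114174151-114174172, minus strand: uUGGGGAAacggccgcugagug
miR-3944-5p, locus called lower, chr10:133371621-133371641, minus strand: uGUGCAGCaggccaaccgaga
miR-4722-5p, locus called lower, chr16:88716315-88716337, minus strand: gGCAGGAGggcugugccagguug
The 11 mature strands that RefSeq lists for these 6 loci had no seed in common. GRO-seq reads at such a locus come from the primary transcript and any overlapping host gene, not from the mature strand.

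The cell line was checked with 17 melanoma and neural crest markers. Of these, 12 were in the table, and the pigment enzymes TYR, DCT and TYRP1 have no row here. SOX10 (DMSO density 0.329), S100A1 (0.245) and MIA (0.217) were the highest, far above the median gene at 0.0196. MLANA (0.01515), MITF (0.0123) and PMEL (0.01035) lay below that median, and the other markers in the table above it. Fibroblast and endothelial markers summed to 0.0096 each in DMSO and none passed the filter. Of 9 leukocyte markers CD68 alone was in the table, with a DMSO density of 0.2315, above that of MIA. In the table were also 4 of 9 epithelial markers, which summed to 0.108 in DMSO, 0.0880 under leflunomide and 0.0439 under A771726. The median gene had a log2 gene body ratio of −0.06 under leflunomide and −0.52 under A771726 as deposited, and the scaling between libraries is not given in the sources used here. Without centring, 61 genes were called higher and 505 lower, so the higher share of the calls was 39.6% with centring and 10.8% without. All rows have a DMSO promoter to gene body ratio of at most 7.5, a limit that 13.3% of rows exceed with leflunomide and 15.8% with A771726, so the rows hold no promoter far above its gene body in DMSO, and the part of this in the promoter values was not tested.

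Library values were solved from the deposited means, which needs a promoter density above 0 in every group. Genes with a promoter listed at 0 in any group were thus left out of limma and of the non-overlap shares. Library values were known for 3657 genes of the gene body filter. With limma on these (both compounds against DMSO, Benjamini-Hochberg adjusted p under 0.05) 0 gene bodies were called (0%), also under each limma alternative, while 256 had an unadjusted p under 0.05 and the smallest adjusted p was 0.297. All 4 treated libraries lay above both DMSO libraries in 352 genes (9.63%) and below both in 298 (8.15%). Without centring these counts were 47 and 665. Of the called genes with known libraries, 34 higher and 49 lower, 29 and 39 did not overlap with DMSO, but the same values had chosen them. The calls leaned on single libraries: among 3360 genes whose deposited means could be rebuilt, 35 were called higher and 49 lower, but 165 and 120 without DMSO library 1. Of the 35 and 49, 19 and 33 were then still called. Without DMSO library 2 the counts were 90 and 54, and without A771726 library 1 they were 55 and 69.

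**Figure D1:**
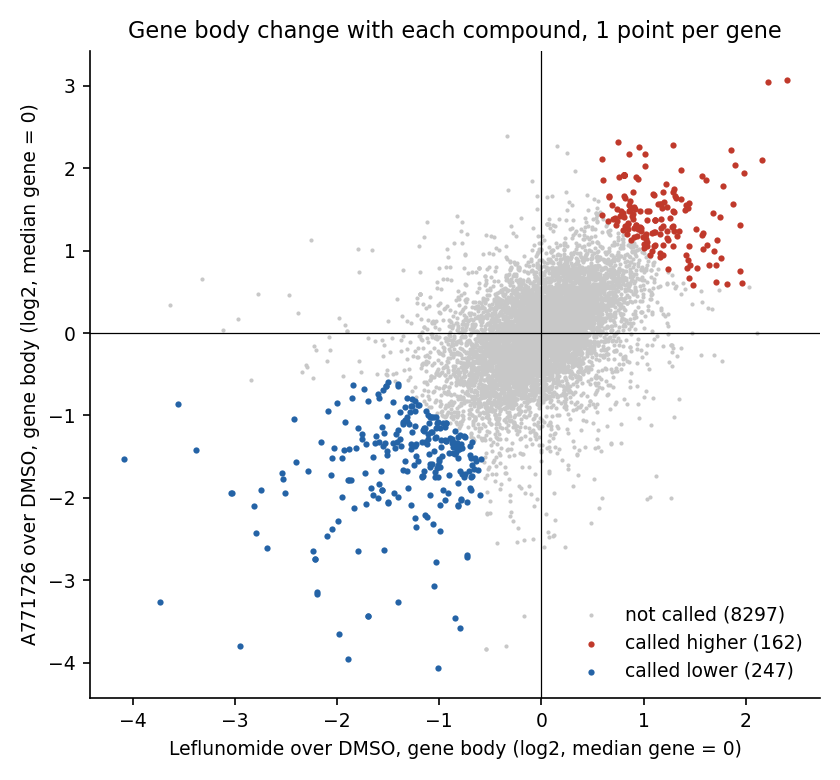
Log2 gene body ratio over DMSO with leflunomide (x axis) and A771726 (y axis), each 0 at the median gene, 1 point per gene (8706). Red points are the 162 genes called higher and blue points the 247 called lower. Both axes share the DMSO libraries, so the slope of the cloud is no measure of likeness.

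Replication-dependent histone genes were the list with the most calls. These encode the core histones and the linker histone H1 that package newly made DNA. Of 50 measured, 15 were called lower and 1 higher, against 2.84% and 1.86% of all genes, and the list's median shared change was −0.59 against −0.00 for all genes. The median was −0.58 under leflunomide and −0.58 under A771726, and as deposited −0.64 and −1.10, so the direction held on both scales. Only 8 of the 50 lay above the median gene.

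The called histones covered every class. Of the H2B genes 6 of 13 were called lower (median −0.94), of H3 3 of 10 (median −0.62), of H2A 2 of 13 (−0.59), of H4 2 of 9 (−0.20) and of linker H1 genes 2 of 5 (−0.91). The exception, HIST1H3E, went from a mean density of 0.0113 in DMSO to 0.0173 and 0.0384 and had the lowest DMSO density of the list. Its call ended without centring.

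HIST3H2A, an H2A gene whose promoter is shown above, had gene body densities of 0.189 and 0.117 in DMSO, 0.0521 and 0.0485 under leflunomide, and 0.0406 and 0.0353 under A771726. All treated values lay below both DMSO values. The limma estimate was −1.41 (95% interval −2.01 to −0.82, adjusted p = 0.297). Its promoter density was 0.339 and 0.520 in DMSO, 0.0694 and 0.166 under leflunomide, and 0.0481 and 0 under A771726, again without overlap.

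HIST1H1B, a linker histone, had 0.203 and 0.170 in DMSO, 0.0477 and 0.0840 under leflunomide, and 0.0524 and 0.0484 under A771726. The groups did not overlap, and limma gave −1.37 (−2.10 to −0.64, adjusted p = 0.507). HIST1H3H had 0.313 and 0.243, then 0.0797 and 0.149, then 0.114 and 0.0947 in the same order, with no overlap. For HIST1H2BF only the DMSO pair (0.0199 and 0.0976) and the leflunomide pair (0.00720 and 0.0133) were recovered. The lower DMSO library lay nearer to the leflunomide pair than to the other DMSO library. HIST1H1A went from a mean of 0.0416 in DMSO to 0.00325 under leflunomide and is listed at 0 under A771726.

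Over the 14 histone genes with known libraries, the median centred log2 density was 2.21 and 2.29 in DMSO, 1.17 and 1.65 under leflunomide, and 1.35 and 1.39 under A771726. Each treated library lay below both DMSO libraries. Leaving out 1 library at a time kept the median shared change of these 14 between −0.94 and −0.68. Of the 14, 6 were called lower with all libraries and 3 without leflunomide library 1. Of 50 histone promoters 5 were called lower and 2 higher, with a median of −0.34, and both shares lie below those of all promoters (15.5% and 15.8%). Many histone genes have near-identical copies, and how reads were shared among copies is not given in the sources used here.

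Other genes of S phase lay near the median gene. Of 35 DNA replication genes 0 were called, against 1.86% higher and 2.84% lower of all genes. Above the median gene lay 19, and the median was 0.02. The highest were GINS4, a subunit of the replicative helicase complex (0.99), and POLE3, a DNA polymerase epsilon subunit (0.98), and the lowest RFC4, of the clamp loader (−0.92), and cyclin A2, CCNA2 (−0.85). Of 21 mitotic genes 1 was called lower, CENPA, the centromeric histone variant (mean densities 0.0278 in DMSO, 0.0136 and 0.00545).

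Cytosolic ribosomal protein genes were lower by a smaller amount and more evenly. Of 69 measured, 64 lay below the median gene, the median shared change was −0.36 (−0.34 under leflunomide, −0.40 under A771726; −0.40 and −0.92 as deposited) and 1, RPL19, was called lower. Small and large subunit genes had medians of −0.32 and −0.36. RPL19 had mean densities of 0.246 in DMSO, 0.122 under leflunomide and 0.0761 under A771726.

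Over 36 ribosomal protein genes with known libraries the median centred density was 2.49 and 2.56 in DMSO, 2.28 and 2.24 under leflunomide, and 2.00 and 1.99 under A771726. On these medians the pairs within a group were closer than any 2 groups. Taken gene by gene against the DMSO mean, the medians were −0.333 and −0.373 under leflunomide and −0.403 and −0.514 under A771726. On that measure the 2 compounds were not set apart. In 15 of the 36, all 4 treated libraries lay below both DMSO libraries, and in 0 above both, against 8.15% and 9.63% of all genes.

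Promoters of this list had a median of −0.59, against −0.01 over all promoters. Of 69, 14 were called lower (20.3%, a share not far from the 15.5% of all) and 1 higher (RPL21, against 15.8% of all). At RPLP1, a ribosomal stalk protein gene, the promoter had 2.19 and 1.20 in DMSO, 0.624 and 0.978 under leflunomide, and 0.674 and 0.470 under A771726. The groups did not overlap, and limma gave −1.46 (−2.38 to −0.55, adjusted p = 0.37).

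**Figure D2:**
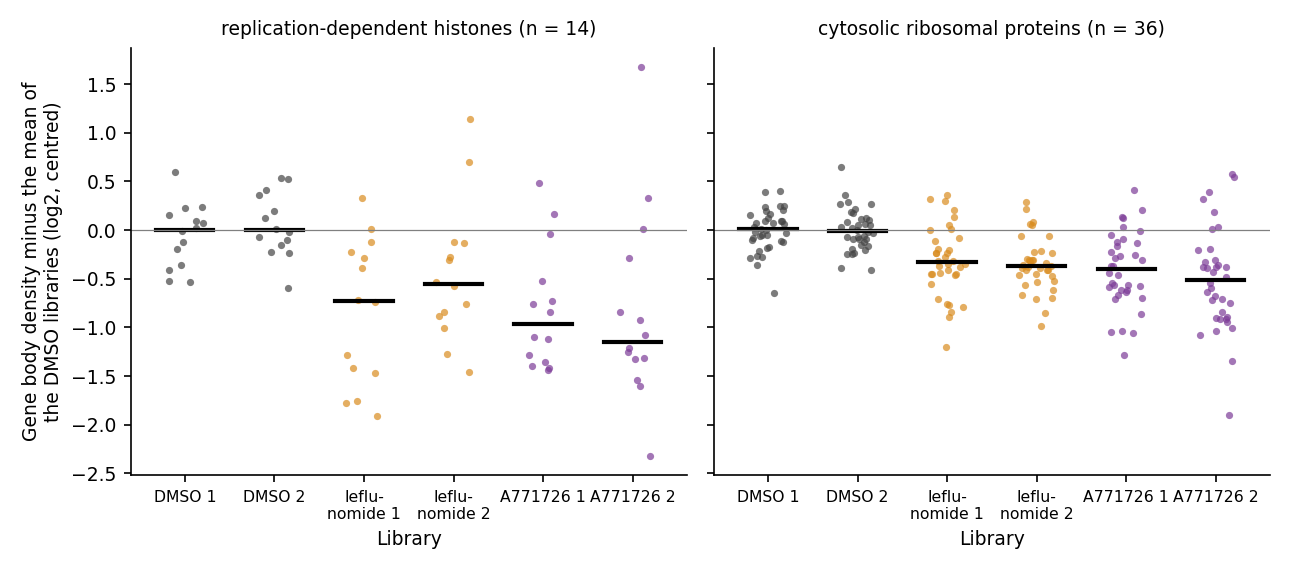
Centred log2 gene body density minus the mean of the DMSO libraries (y axis) in each recovered library (x axis) for 14 histone and 36 ribosomal protein genes, with 1 point per gene and a bar at the median. The 4 treated medians lie below both DMSO medians in each panel, and single histone genes spread more widely than ribosomal protein genes.

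Non-coding hosts of small nucleolar RNAs, whose introns carry RNAs that guide ribosomal RNA modification, were low on both windows in the group means. Only 1 gene of the list had known libraries in all groups, and there treated and DMSO libraries overlapped on both windows. Of 17 genes on the list 3 lay above the median gene on gene bodies and the median was −0.43 (−0.46 and −1.10 as deposited). On promoters 7 of 17 were called lower (41.2%, against 15.5% of all promoters) and 0 higher (15.8% of all), and the median was −0.94. The list also holds 4 long non-coding RNAs that are no such hosts (MALAT1, NEAT1, TUG1 and MIR17HG), 2 of which were its highest members, MALAT1 (0.53) and TUG1 (0.33). Without these, chosen by their function after the values were seen, 0 of 13 hosts lay above the median gene and 6 of 13 promoters were called lower. SNHG5, called lower on the gene body, had a mean density of 0.774 in DMSO, 0.358 under leflunomide (0.315 and 0.402) and 0.198 under A771726 (0.259 and 0.138).

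MYC and ribosome biogenesis factors, which act in the same growth program, sat at the median gene, with 15 of 30 above it, a median of −0.02 and 0 called. RNA polymerase II and Mediator subunits had 8 of 18 above it and a median of −0.01, with 0 called. Over all genes 1.86% were called higher and 2.84% lower, so 0 calls do not set either list apart. Nuclear genes of the respiratory chain had 15 of 35 above it and a median of −0.07. The highest of these was ATP5G1, an ATP synthase subunit gene (0.83), and the lowest ATP5H (−0.94).

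**Figure D3:**
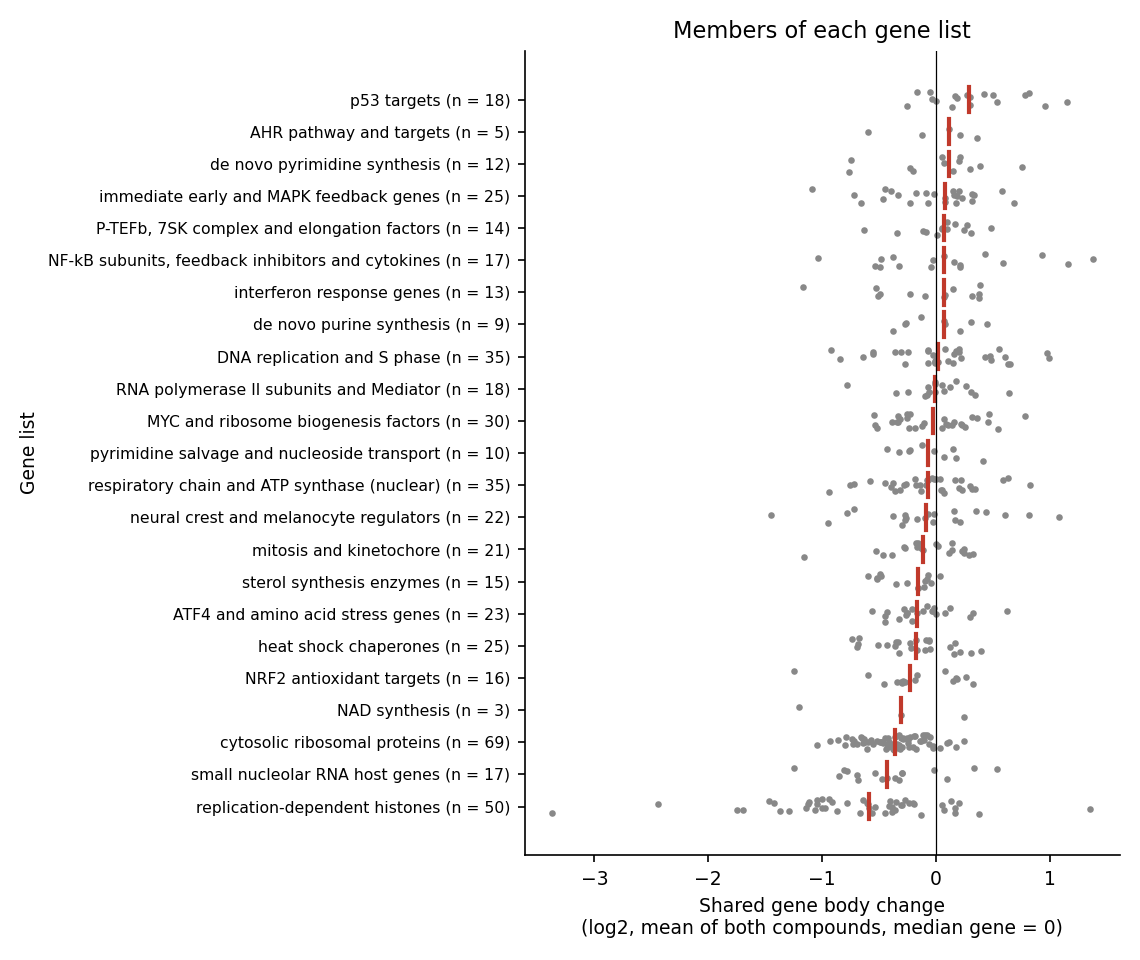
Shared gene body change (x axis, log2, 0 at the median gene) of each measured member of 23 gene lists, ordered by list median (red bars). Histones, small nucleolar RNA hosts and ribosomal proteins lie at the bottom, with medians of −0.59, −0.43 and −0.36, and p53 targets at the top with 0.29.

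Transcript length moved with the shared change. With genes split into 4 equal bins by the span of their transcript in GENCODE 29, the shortest bin (median 2.31 kb) had a median shared change of −0.15 and the longest bin (median 63.5 kb) of 0.12. Calls in both directions were most frequent in the shortest bin, 3.16% higher and 7.72% lower, against 0.826% and 0.243% in the longest. Histone genes had a median span of 0.475 kb and 49 of 50 fell in the shortest bin, in which 39.9% of genes lay above the median gene, against 16.0% of the histones. Ribosomal protein genes had a median span of 4.48 kb, and 7.25% lay above the median gene. In the small nucleolar RNA host list, 12 of 15 genes with a span fell in the shortest bin. The part of length in these lists' values was not tested.

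**Figure D4:**
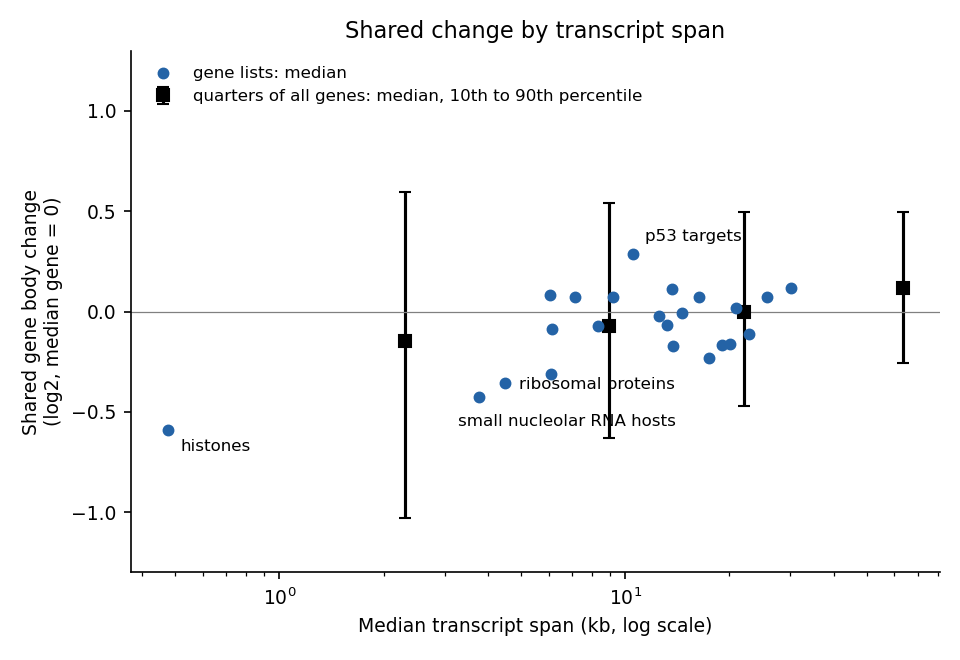
Median shared gene body change (y axis, log2) against median transcript span (x axis, kb, log scale) for 4 equal bins of all genes by span (squares, bars from the 10th to the 90th percentile of genes) and for the 23 gene lists (points). The bins go from −0.15 to 0.12, and the histone, ribosomal protein and host gene lists lie below the shortest bin's median.

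Targets of p53, the stress-activated tumour suppressor, had the highest median of the 23 lists, 9 of which had a median above that of all genes. Of 18 measured targets 14 lay above it, with a median of 0.29, but 0.27 under leflunomide and 0.14 under A771726 became 0.22 and −0.38 as deposited, so the sign with A771726 depends on centring. Over the 5 targets with known libraries the median was 0.18, and it was −0.14 without A771726 library 2 and 0.03 without DMSO library 1. BTG2, an antiproliferative gene, was the 1 called member, with 0.0349 and 0.0184 in DMSO, 0.0277 and 0.0700 under leflunomide, and 0.0416 and 0.0619 under A771726. Its leflunomide values overlapped with DMSO, and the call ended without centring. FDXR, the mitochondrial ferredoxin reductase, had mean densities of 0.0145, 0.0232 and 0.0254.

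NF-kB genes had calls in both directions. NFKBIA, which encodes the inhibitor IκBα and is itself an NF-kB target, averaged 0.0145 on the gene body in DMSO, 0.0454 under leflunomide (0.0680 and 0.0228) and 0.0243 under A771726 (0.0170 and 0.0316). Its promoter is listed at 0 in DMSO, and had 0.173 and 0.150 under leflunomide and 0.0722 and 0.219 under A771726. The cytokine gene IL1A was called higher (0.00500, 0.0127 and 0.00955) and IL1B lower (0.0167, 0.00550 and 0.00520), although the IL1B promoter was called higher. The leflunomide libraries of IL1A were 0.0205 and 0.00480, the second below the DMSO mean, and its call ended without centring. Over the 17 measured genes the median was 0.07, and 4 of 16 promoters were called higher, NFKB2, NFKBIA, IL1B and CXCL3, and 1 lower, NFKBIB, against 15.8% and 15.5% of all promoters.

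Pathways next to the inhibited enzyme had no called gene body, but their lists are short. With 1.86% of all genes called higher and 2.84% lower, 0 calls do not set lists of this size apart. In de novo pyrimidine synthesis 0 of 12 were called and the median was 0.11. DHODH was the highest at 0.75 and UMPS, the enzyme that uses its product orotate, was near the lowest at −0.75. The DHODH gene body had 0.0136 and 0.0113 in DMSO, 0.0204 and 0.0186 under leflunomide, and 0.0246 and 0.00870 under A771726. As deposited the last lay below both DMSO values, and after centring all treated values lay above them. Its promoter was called higher (0.0438 and 0.0520, then 0.208 and 0.376, then 0.0962 and 0.1565, limma adjusted p = 0.998). On the list 4 of 13 promoters were called higher and 3 lower, against 15.8% and 15.5% of all promoters. UMPS had 0.0510 and 0.0808 in DMSO, 0.0318 and 0.0478 under leflunomide, and 0.0287 and 0.0195 under A771726, without overlap as deposited but with overlap after centring (limma −0.72, −1.55 to 0.12, adjusted p = 0.707). Pyrimidine salvage (10 genes, median −0.07), purine synthesis (9 genes, 0.07) and the P-TEFb and 7SK list (14 genes, 0.07) also had 0 called, and HEXIM1 itself had a shared change of 0.06 (limma 0.08, −0.43 to 0.59, adjusted p = 0.955).

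Amino acid stress genes under ATF4 had 5 of 23 above the median gene and a median of −0.17. None was called, against 1.86% higher and 2.84% lower of all genes. Heat shock chaperones had 6 of 25 above it and a median of −0.17. Sterol synthesis enzymes had 1 of 15 above it, with a median of −0.12 under leflunomide and −0.47 under A771726. The library medians of 11 sterol genes were −0.31 and −0.44 in DMSO, −0.34 and −0.32 under leflunomide, and −1.05 and −1.02 under A771726. Taken gene by gene against the DMSO mean, the medians were −0.02 and −0.20 under leflunomide and −0.25 and −0.41 under A771726. DMSO library 1 minus library 2 had a median of −0.26. In 0 of the 11 genes did all 4 treated libraries lie below both DMSO libraries. NRF2 targets had 6 of 16 above it (median −0.23), with OSGIN1, an oxidative stress growth inhibitor, called lower (0.0217, 0.0112 and 0.00290).

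The remaining lists had at most 1 call in each direction, against 1.86% higher and 2.84% lower of all genes. Interferon genes had a median of 0.07 over 13, with ISG20, an antiviral exonuclease, called lower. ISG20 had 0.0511 and 0.0559 in DMSO, 0.0192 and 0.0242 under leflunomide, and 0.0126 and 0.0173 under A771726, without overlap (limma −1.16, −1.87 to −0.46, adjusted p = 0.551). Immediate early and MAPK feedback genes had a median of 0.08 over 25, with the AP-1 subunit FOSL2 called lower. AHR targets (5 genes) had a median of 0.12 and NAD synthesis genes (3) of −0.31, with 0 called in either.

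Neural crest and melanocyte regulators had a median of −0.09 over 22 and 1 call each way. PMEL, a melanosome structural protein, was called higher (mean densities 0.0104, 0.0224 and 0.0172) and SNAI2, a transcription factor of neural crest migration, lower (0.0349, 0.0136 and 0.00560). SNAI2 had 0.0407 and 0.0290 in DMSO and 0.00970 and 0.0175 under leflunomide, which did not overlap. The A771726 libraries of PMEL were 0.0305 and 0.00380, the second below the DMSO mean, and its call ended without centring. MITF, the master regulator of the melanocyte lineage, was not called at 0.82 (0.0123, 0.0226 and 0.0156).

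Away from the lists, calls were made at all levels of transcription. With genes split into 4 equal bins by their mean density over the groups, 1.98%, 1.88%, 2.21% and 1.38% were called higher and 3.90%, 2.90%, 2.34% and 2.20% lower, from the lowest bin to the highest. PSTK, the kinase that prepares selenocysteine tRNA, had 0.00600 and 0.00480 in DMSO, 0.0223 and 0.0277 under leflunomide, and 0.0177 and 0.0216 under A771726. It had the smallest p of all gene bodies, with a limma estimate of 1.99 (1.33 to 2.64, adjusted p = 0.297), and its treated values lay far from DMSO. The difference between the compounds at PSTK was 0.18 (−0.58 to 0.93).

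LGR6, a receptor for R-spondins, had mean densities of 0.0310 in DMSO, 0.113 under leflunomide and 0.106 under A771726. TMEM158, a gene induced by RAS signalling, had 0.0270, 0.109 and 0.0762, but its A771726 libraries were 0.124 and 0.0288. GJB1, a gap junction protein, had 0.00560 and 0.00660 in DMSO, 0.0309 and 0.0192 under leflunomide, and 0.0276 and 0.00800 under A771726, with limma at 1.68 (0.70 to 2.67, adjusted p = 0.540). ANKRD23 (1.63, 0.91 to 2.35) and INE1 (1.61, 0.82 to 2.39) were also among the 10 smallest p, with adjusted p of 0.304 and 0.433. The other leading genes, LOC151475, LOC100506472, ITPRIPL1, TCEAL3, MRPL23, ZNF619, PAR5 and ARMCX3, had shared changes between 1.60 and 2.63.

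Among genes called lower, C11orf91 had 0.0591 and 0.0585 in DMSO, 0.0156 and 0.0169 under leflunomide, and 0.00810 and 0.0106 under A771726. Its limma estimate was −1.76 (−2.39 to −1.14, adjusted p = 0.297), and the pairs were tight. GSDMD, the pore-forming protein of pyroptosis, had 0.0403 and 0.0529 in DMSO, 0.0135 and 0.00910 under leflunomide, and 0.0128 and 0.0134 under A771726 (limma −1.46, −2.13 to −0.78, adjusted p = 0.346). LIPT2, a lipoyl transferase, had 0.0348 and 0.0344, then 0.00920 and 0.00500, then 0.00960 and 0.0103 in the same order (limma −1.50, adjusted p = 0.304). None of these 3 overlapped with DMSO. ERV3-1 had −1.13 (−1.68 to −0.57, adjusted p = 0.433). With a pseudocount 5 times larger, 18 of 69 named gene body calls ended, among them ERV3-1, BTG2, CENPA, FOSL2, IL1A, IL1B, ISG20, OSGIN1, PMEL and SNAI2.

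Genes called lower had a median DMSO density of 0.0415, against 0.0306 for all genes past the filter. The ratio divides by DMSO, so a high DMSO value favours such a call and this comparison cannot tell whether sparse genes dominate. By mean density over the groups, lower calls were most frequent in the lowest of the 4 bins (3.90%, against 2.20% in the highest). OR10A2, an olfactory receptor gene, went from 0.0282 in DMSO to being listed at 0 with both compounds, so it passed the filter through DMSO alone. FLJ35946, LOC729862 and the protease gene PRSS8 were listed at 0 with 1 compound. GSTT2 and GSTT2B, near-identical glutathione transferase genes, had the same pattern (DMSO means 0.0301 and 0.0302, leflunomide 0.00160 for both), and their DMSO libraries alone ranged from 0.0121 to 0.0480 for GSTT2. C20orf195, LINC00204A, LY6G6D and LOC645212 had shared changes between −2.61 and −2.22. LOC645212 had 0.0769 and 0.0853 in DMSO, 0.0176 and 0.00610 under leflunomide, and 0.0113 and 0.0147 under A771726, without overlap.

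Small RNA genes made up 16.7% of the genes called higher and 22.3% of those called lower, against 6.49% of all. The 27 called higher include 10 SNAR-A copies with 1 set of values, so the 16.7% counts 1 measurement 10 times. With identical values counted once, the 162 genes called higher are 153 and the 247 called lower are 242. Of 334 microRNA loci measured, 14 were called higher and 37 lower, against 1.86% and 2.84% of all genes. MIR3677 had mean densities of 0.0104, 0.0274 and 0.0406, MIR1914 0.0198, 0.0546 and 0.0416, and MIR4670 0.0216, 0.0538 and 0.0443, in the order DMSO, leflunomide, A771726. MIR2110, MIR3944, SCARNA3 and SNORA59A are listed at 0 under A771726, after 0.0376, 0.0260, 0.0257 and 0.0320 in DMSO. MIR4722 had 0.0399, 0.00410 and 0.00260.

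SNAR genes are a family of short non-coding RNAs on near-identical copies that RNA polymerase III transcribes. Among promoters with known libraries they were the 1 group that passed the test. With limma 12 of 3869 promoters (0.31%) had an adjusted p under 0.05, all higher, and these were 10 SNAR-A copies with 1 set of values and SNAR-B1 and SNAR-B2 with another. They are thus 2 measurements, not 12. The SNAR-A10 promoter had 0.175 and 0.156 in DMSO, 1.18 and 1.28 under leflunomide, and 1.44 and 1.75 under A771726. Its limma estimate was 2.75 (1.76 to 3.75, adjusted p = 2.06e-05).

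SNAR-B1 had 0.438 and 0.0520 in DMSO, 2.53 and 2.37 under leflunomide, and 2.41 and 2.85 under A771726 (limma 3.64, 2.77 to 4.52, adjusted p = 6.78e-13). All treated values exceeded both DMSO values several-fold, and the DMSO libraries differed between themselves. Both calls ended when limma was run without its variance trend over density and its robust option (adjusted p = 0.997 for SNAR-B1 and SNAR-A10). On the gene body SNAR-A10 had 0.270 and 0.343, then 0.546 and 0.488, then 0.742 and 0.879 (limma 1.39, 0.79 to 1.98, adjusted p = 0.297). Of 16 measured SNAR symbols 11 were called higher on the gene body and 15 on the promoter, against 1.86% and 15.8% of all, and 0 lower. The table holds 17 SNAR symbols, of which SNAR-H passed neither filter. Its gene body mean was 0.0157 in DMSO and is listed at 0 with both compounds. The 16 symbols hold 4 distinct sets of values per window, of which 2 were called higher on the gene body and 3 on the promoter. How reads were assigned among the copies is not stated, and with the least dense entry per symbol SNAR-A10 on the gene body was no longer called (0.37). SNAR-D had a gene body mean of 0.110 in DMSO, 0.567 under leflunomide and 0.656 under A771726 and promoter means of at most 0.0554.

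**Figure D5:**
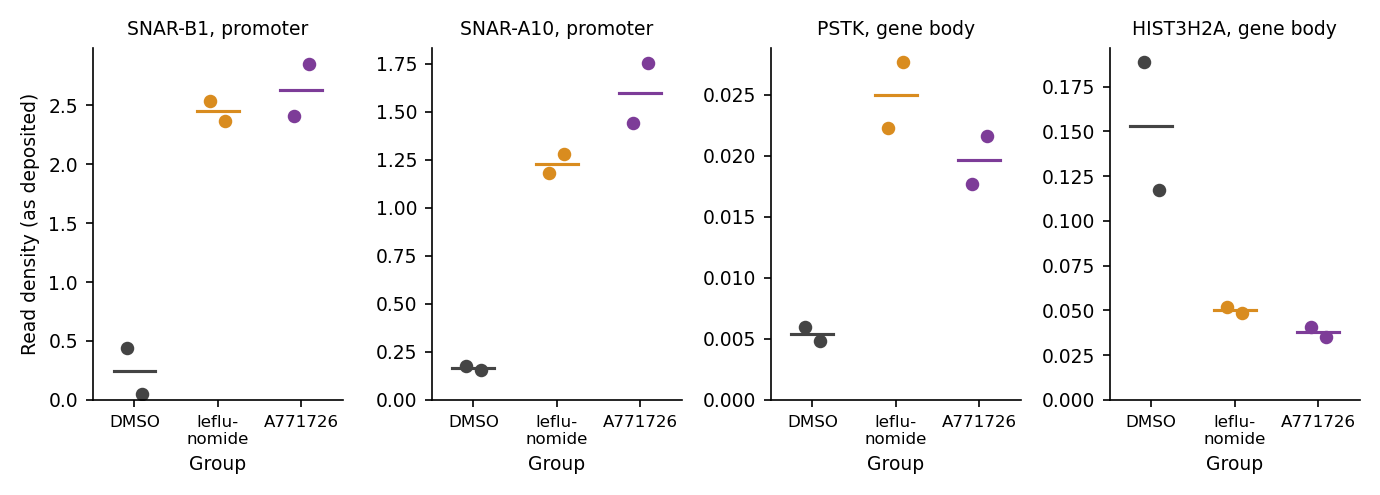
Read density as deposited (y axes, each from 0) in the recovered libraries of each group (points, bars at the mean of 2) for the promoters of SNAR-B1 and SNAR-A10 and the gene bodies of PSTK and HIST3H2A. In each panel the 4 treated libraries lie on 1 side of both DMSO libraries.

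Other promoter calls rested on few reads. Of the 1400 promoters called higher 848 are listed at 0 in DMSO. Of the 1370 called lower 447 are listed at 0 under leflunomide and 555 under A771726. Such promoters were outside limma, and 365 of the 1400 and 413 of the 1370 had known libraries at the entry used here. One promoter read was worth 0.0438 and 0.0520 in the DMSO libraries, 0.0347 and 0.0376 under leflunomide, and 0.0241 and 0.0313 under A771726. The part of these steps in the calls was not tested. Among denser promoters, APRT, the adenine salvage enzyme gene, and LIG1, the replicative DNA ligase gene, are listed at 0 in DMSO. APRT had 0.278 and 0.0413 under leflunomide and 0.480 and 0.188 under A771726, and LIG1 had 0.104 and 0.150, then 0.0481 and 0.376. ODF2L, SPICE1, ZNF234, ZNF593 and JRKL are also listed at 0 in DMSO, and GALNT7 had 0.00105.

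PAICS, a purine synthesis enzyme, was called lower on the promoter, with 0.350 and 0.468 in DMSO, 0.0347 and 0.113 under leflunomide, and 0.0722 and 0 under A771726 (limma −3.09, −5.24 to −0.94, adjusted p = 0.695), and its call ended with the least dense entry per symbol. RNF114, a ubiquitin ligase gene, had 0.306 and 0.260 in DMSO, is listed at 0 under leflunomide and had 0.0241 and 0 under A771726. ARMC7 is listed at 0 with both compounds after 0.263 and 0.416. ALKBH4, MNT, PA2G4P4, SNORA28 and RNF187 were the other leading promoters called lower.

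Promoter values were also read for the genes called on gene bodies. Of 162 genes called higher on gene bodies 124 had a measured promoter, of which 42 were called higher (33.9%) and 10 lower, and the median promoter change was 0.52 against −0.11 over 7548 genes measured in both, of which 14.4% were called higher and 16.3% lower. Of 187 promoters of the genes called lower 38 were called lower (20.3%) and 24 higher (12.8%), shares near those of all genes, with a median of −0.23. Both windows come from the same libraries.

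Between the compounds 0 gene bodies passed limma (0%, 3657 tested, 204 at an unadjusted p under 0.05, smallest adjusted p 0.646). This was the 1 pair of compounds compared, at matched dose and time. Of the genes called higher, 119 of 162 had the larger centred change with A771726, and of those called lower 154 of 247. The same share over all genes was not counted, so these counts do not set the called genes apart. The smallest p was at C17orf61 (A771726 minus leflunomide −2.74, −3.73 to −1.75, adjusted p = 0.646), with 0.0681 and 0.0404 in DMSO, 0.0432 and 0.0793 under leflunomide, and 0.00370 and 0.00490 under A771726. NAPRT1, a nicotinate salvage enzyme of NAD synthesis, had 0.0545 and 0.0797 in DMSO, 0.0100 and 0.0144 under leflunomide, and 0.0438 and 0.0360 under A771726 (2.05, 1.19 to 2.92, adjusted p = 0.646). These intervals are not adjusted for the number of genes, and a p above the threshold does not show that the compounds act alike.

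For histones and ribosomal proteins the compounds' list medians differed little on the centred scale, −0.58 and −0.58, and −0.34 and −0.40. At HIST3H2A the difference between the compounds was 0.10 (−0.58 to 0.79), at C11orf91 −0.19 (−0.91 to 0.53), at the SNAR-B1 promoter 0.68 (−0.33 to 1.69), and at the SNAR-A10 gene body 1.14 (0.45 to 1.83). Only the last of these 4 intervals lies apart from 0. The genes nearest to the threshold were MAGED2 (1.0011, called higher), THBS2 (0.99626, not called), SLC30A2 (−1.0021, called lower) and HIST2H2AC (−0.99974, not called).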

How the data were processed

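Promoter and gene body densities (coverage signal) and traveling ratios were measured by GRO-seq in 6 libraries. Per the file headers, the deposited signal columns are the authors' group means of read density, and the deposited ratio columns are the authors' mean promoter over gene body ratio and its fold over DMSO. The authors used hg18, Bowtie 0.12.9 and bedtools, per the submitters' processing notes. Window limits, scaling and library depth were not given in the sources used here, so precision is limited by 2 libraries per group. The header A771762 was read as A771726.

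From 22442 rows, the densest entry per symbol (12438) was kept, filtered at the 30th percentile of row means. Ratios were log2(density + 0.0022) on gene bodies and log2(density + 0.01735) on promoters, which understates changes of low genes, minus the median gene. Library densities were solved from the means of densities and ratio for 3869 genes (3558 with the entry of the means), and libraries told apart by the value of 1 promoter read. Library 1 has the smaller value. They carry no replicate letter, and p-values measure the spread between these libraries, which may be technical. limma 3.58.1 (trend, robust) was run on centred log2 library densities of all groups, with Benjamini-Hochberg adjustment, and was tested on simulated data, as was the recovery. Named were the 12 highest and 12 lowest called gene bodies, 5 and 5 small RNA genes, 8 and 8 promoters at or above the 75th percentile of density, the 10 smallest p per contrast, and in each of 23 lists the 2 highest, 2 lowest and called members. Members and lists were chosen with earlier results of these data known. Alternatives covered pseudocount, filter, centring, entry, call rule, small RNA genes, limma options and single libraries. RefSeq sequences were matched by transcript or symbol (20140 transcripts). The text describes some of the genes that this rule selects, and one is not reported here.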

Additional observations from a re-analysis of the deposited data

Results flagged for a closer look

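In 4 genes named for the comparison between the compounds, both leflunomide libraries lay below both DMSO libraries and both A771726 libraries above them, on the centred scale. The A771726 minus leflunomide estimates were 2.32 for GHDC (1.23 to 3.41), 1.74 for MSL3 (1.05 to 2.44), 1.63 for MST1 (0.84 to 2.42) and 1.67 for POLM (0.91 to 2.43). The MSL3 estimate is from another entry than its group means. In limma the difference itself had an adjusted p of 0.646 for each. POLM, a DNA polymerase of end joining, had 0.0627 and 0.0432 in DMSO, 0.0270 and 0.0208 under leflunomide, and 0.0511 and 0.0623 under A771726, so as deposited its A771726 values overlapped with DMSO. The same overlap was present as deposited in the other 3, where the lower A771726 library lay below the higher DMSO library: 0.0147 against 0.0167 for GHDC, 0.0475 against 0.0524 for MST1, and 0.0161 against 0.0172 for the tested entry of MSL3.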

How the results depend on the processing

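No paired analysis was possible because the recovered libraries carry no replicate letters. Gene body calls (162 higher, 247 lower) were 51 and 122 with a pseudocount 5 times larger, 61 and 505 without centring, and 78 and 147 with both compounds at least 2-fold. Lower calls were 399 without the filter and 139 with a filter at the 50th percentile. Promoter calls (1400 and 1370) were 213 and 319 with the larger pseudocount. Higher promoter calls were 849 with both compounds at least 2-fold, and lower ones 781 at the 50th percentile and 764 with the least dense entry per symbol. Of 69 named gene bodies called, 51 kept the call with the larger pseudocount and 65 without centring. With the least dense entry GSTT2 reversed to 0.55 on the gene body and MSL3 to 1.66 on the promoter. Leaving out 1 library, chosen after seeing the data, gave 38 to 165 higher and 54 to 120 lower gene bodies (35 and 49 with all libraries, 3360 genes), and 379 to 967 higher and 355 to 912 lower promoters (412 and 350 with all). The limma promoter calls (12) were 0 with no trend and no robust fit, 2 with identical values counted once, and 12 to 28 without 1 library, 28 without DMSO library 1. The limma gene body calls were 0 under each alternative run, for both contrasts. Non-overlapping gene bodies (352 higher, 298 lower) were 47 and 665 without centring. List medians relative to all genes moved beyond the library spread without the filter for interferon genes (−0.13, from 0.08) and ribosomal proteins (−0.40, from −0.35). Library depth is not given in the sources used here, and low densities limit every call.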
